A study of Mus musculus with 10 samples.

Results

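The regions described here are 606 promoter windows of mouse metaphase II oocytes, the mature unfertilised eggs, in which CpG methylation was low in 2-month wild-type (WT) females alone. They were selected on their measured levels from the 40537 nuclear windows listed for all 3 groups of the study, leaving out the Y chromosome. A window was kept where its level in 2-month WT oocytes lay at least 20 percentage points (points) below the level in 2-month Tet2 knockout (Tet2KO) oocytes and also at least 20 points below the level in 11-month WT oocytes. The level of a window is the percentage of its CpG calls that were methylated. The 606 windows are 1.49% of those shared by the groups, and they merge into 491 separate loci where windows that overlap or lie within 1 kb are joined.

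The study compared low-input bisulfite libraries of oocytes from 3 Tet2KO samples at 2 months, 3 WT samples at 11 months and 4 WT samples at 2 months, all of a C57BL6/129 strain background. The Tet2KO samples carry a loss of Tet2, and the labels used here do not say which allele, or whether the loss reached other tissues. The deposited tables give 1 pooled set of calls per group and window, called a pool here, so no value of a single library, animal or oocyte was used, and no difference has a replicate check. The intervals printed beside levels (Wilson 95%) and differences (Newcombe 95%) cover counting error only, and calls from PCR copies or from the same read are not independent. Because the selection used these same levels, the levels and differences below are a description of the selected windows, with no test. The Tet2KO and the age difference are both taken against the same 2-month WT pool. A low value there enters both differences, and the pooled table does not allow its 4 libraries to be split.

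In DNA, methyl groups are carried mostly by the cytosine of CG pairs (CpG sites). The oocyte lays down its methylation while it grows, largely over transcribed gene bodies and over intergenic starts of oocyte transcripts that run through them, by the DNA methyltransferase Dnmt3a with its cofactor Dnmt3l, and most CpG-rich promoters stay unmethylated. Tet enzymes, of which Tet2 is a member, oxidise 5-methylcytosine to 5-hydroxymethylcytosine and further products, a step toward the loss of the mark. Bisulfite sequencing reads 5-methylcytosine and 5-hydroxymethylcytosine alike as methylated, so a level covers both forms.

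The promoter sequences below show the range of CpG content among the members. The first 6 belong to the members with the largest contrast among genes with an entry in the RefSeq promoter table and at least 30 calls in every pool, leaving out predicted genes and cDNA clones, and the last pair are the most CpG-rich and the most CpG-poor promoter among named members with at least 30 calls in every pool. Each runs 5′ to 3′ on the gene's own strand from 250 bases before to 50 bases after the start, read from the RefSeq table for GRCm38.p6, the assembly that mm10 represents, and capitals mark CpG sites. The Chad promoter (chr11:94564797-94565096, plus strand) holds 13 CpG sites, that of Ccdc73 (chr2:104886074-104886373, plus strand) 16, and that of Shisa7 (chr7:4844647-4844946, minus strand) 23. The Acsf2 promoter (chr11:94601737-94602036, minus strand) holds 29, that of Cntn1 (chr15:92050915-92051214, plus strand) 9, and that of Emb (chr13:117220323-117220622, plus strand) 14. Pparg (chr6:115360894-115361193, plus strand) is the CpG-rich extreme with 44 sites, and Smok2b (chr17:13230013-13230312, plus strand) is the CpG-poor extreme with 2.
Chad: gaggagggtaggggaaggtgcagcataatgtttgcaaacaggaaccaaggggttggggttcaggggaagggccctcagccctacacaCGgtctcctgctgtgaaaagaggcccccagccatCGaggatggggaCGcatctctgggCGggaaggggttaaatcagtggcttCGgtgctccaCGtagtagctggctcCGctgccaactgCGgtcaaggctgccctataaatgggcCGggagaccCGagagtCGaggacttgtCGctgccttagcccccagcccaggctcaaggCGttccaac
Ccdc73: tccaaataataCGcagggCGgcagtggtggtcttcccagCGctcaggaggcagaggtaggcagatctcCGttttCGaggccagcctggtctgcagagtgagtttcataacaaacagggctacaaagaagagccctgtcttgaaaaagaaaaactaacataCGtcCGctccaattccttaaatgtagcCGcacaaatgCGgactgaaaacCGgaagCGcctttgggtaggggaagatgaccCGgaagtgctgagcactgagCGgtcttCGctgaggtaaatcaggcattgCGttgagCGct
Shisa7: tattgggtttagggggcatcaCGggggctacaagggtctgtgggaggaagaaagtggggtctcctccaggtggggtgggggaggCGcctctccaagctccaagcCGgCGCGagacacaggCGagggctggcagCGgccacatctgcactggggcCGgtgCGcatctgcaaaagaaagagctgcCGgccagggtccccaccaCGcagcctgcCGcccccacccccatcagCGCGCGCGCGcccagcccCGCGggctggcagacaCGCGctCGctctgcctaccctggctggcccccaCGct
Acsf2: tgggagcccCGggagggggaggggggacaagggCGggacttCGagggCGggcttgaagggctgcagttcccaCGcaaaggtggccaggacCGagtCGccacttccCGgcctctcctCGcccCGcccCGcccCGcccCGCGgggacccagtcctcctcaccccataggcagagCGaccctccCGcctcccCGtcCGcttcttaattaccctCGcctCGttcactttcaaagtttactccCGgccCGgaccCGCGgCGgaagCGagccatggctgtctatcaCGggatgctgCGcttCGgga
Cntn1: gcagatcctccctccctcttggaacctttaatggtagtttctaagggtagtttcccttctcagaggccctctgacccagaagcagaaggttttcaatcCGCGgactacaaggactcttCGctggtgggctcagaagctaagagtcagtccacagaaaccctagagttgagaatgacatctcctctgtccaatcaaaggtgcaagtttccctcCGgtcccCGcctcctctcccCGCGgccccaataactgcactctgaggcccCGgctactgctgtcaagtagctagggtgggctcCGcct
Emb: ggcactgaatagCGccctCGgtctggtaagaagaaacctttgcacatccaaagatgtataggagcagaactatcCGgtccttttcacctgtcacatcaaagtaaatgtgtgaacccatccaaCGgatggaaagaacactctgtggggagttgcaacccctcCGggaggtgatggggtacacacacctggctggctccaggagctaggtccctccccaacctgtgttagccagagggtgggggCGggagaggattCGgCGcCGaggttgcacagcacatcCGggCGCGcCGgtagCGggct
Pparg: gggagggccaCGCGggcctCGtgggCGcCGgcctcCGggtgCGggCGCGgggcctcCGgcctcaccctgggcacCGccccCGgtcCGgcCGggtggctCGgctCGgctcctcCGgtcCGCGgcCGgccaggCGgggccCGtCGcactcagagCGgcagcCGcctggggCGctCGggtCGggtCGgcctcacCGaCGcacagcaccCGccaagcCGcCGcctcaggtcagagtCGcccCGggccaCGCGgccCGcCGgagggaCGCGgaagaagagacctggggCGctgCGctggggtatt
Smok2b: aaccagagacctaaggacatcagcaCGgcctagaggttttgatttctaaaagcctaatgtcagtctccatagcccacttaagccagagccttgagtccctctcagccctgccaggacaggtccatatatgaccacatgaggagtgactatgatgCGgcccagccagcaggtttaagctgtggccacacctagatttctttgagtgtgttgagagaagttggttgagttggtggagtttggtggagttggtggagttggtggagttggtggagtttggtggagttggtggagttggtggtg

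Across the 606 members the median level was 75% in the Tet2KO pool, 73.8% in the 11-month WT pool and 26.7% in the 2-month WT pool. The middle 50% of members ran between 51.3% and 93.7% in Tet2KO, between 48.8% and 93.1% at 11 months and between 9.09% and 48.1% in 2-month WT. All 40537 shared windows had medians of 2.17%, 2.72% and 3.23% in the same order of pools. The selection itself places members at 20% or more in Tet2KO and at 11 months, within the methylated minority of promoters. The members reached 80% or more in both the Tet2KO and the 11-month pool in 212 windows, and stayed under 50% in both in 95. In 2-month WT, 157 members were at 10% or less, 307 lay between 10% and 50%, and 142 were at 50% or more, so that low there often means lower than in the other pools and not unmethylated. An intermediate level in summed calls does not tell a mixture of methylated and unmethylated oocytes apart from partly methylated molecules.

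**Figure D1:**
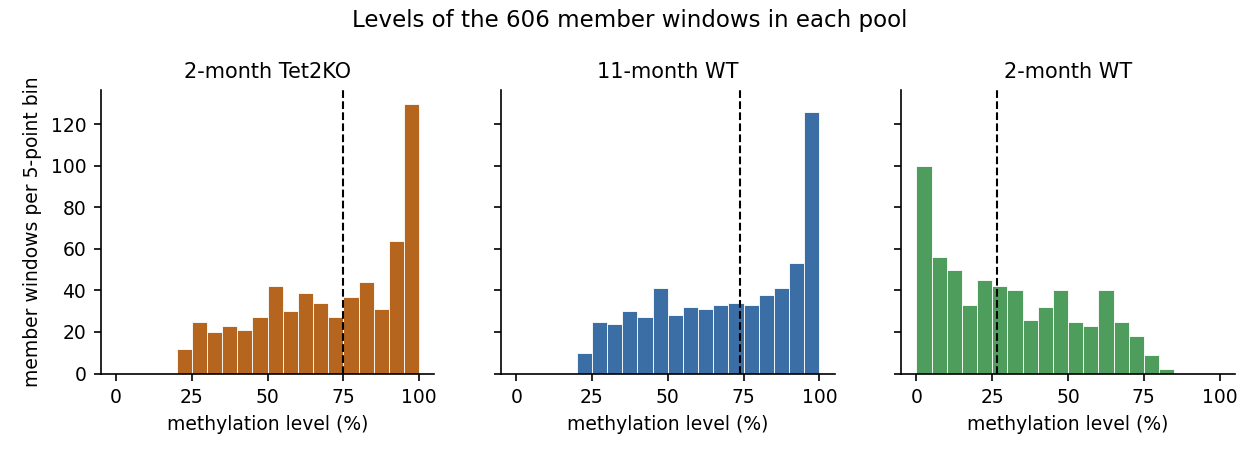
Number of member windows (y axis) in each 5-point bin of methylation level (x axis, % of CpG calls) in the 2-month Tet2KO, 11-month WT and 2-month WT pools, with a dashed line at the median. The medians are 75%, 73.8% and 26.7%, and the highest bar is the bin next to 100% in the Tet2KO and 11-month pools and the bin next to 0% in 2-month WT.

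How far the levels of a member can be trusted depends on its calls. Over all shared windows the Tet2KO pool had 5.44e+06 calls, the 11-month pool 1.68e+07 and the 2-month WT pool 9.25e+06. Members had a median of 24.5 calls in the Tet2KO pool, 61.5 at 11 months and 43 in 2-month WT, against 79, 245 and 131 over all shared windows. Other windows at 20% or more in both the Tet2KO and the 11-month pool had similar medians of 26, 65 and 39. The Newcombe interval lay above 0 for both differences in 510 members (84.2%), for the Tet2KO difference in 526 and for the age difference in 577. With the level taken from the deposited mean fraction over covered positions, 434 of the 606 (71.6%) still met the selection, and both differences kept their sign in 601. The smaller of a member's 2 differences had a median of 29.6 points and reached 94.3 points. It lay between 20 and 30 points in 310 members and at 50 points or more in 84. Just inside the selection were 175 members at 20 to 25 points, and just outside it were 282 windows at 15 to 20 points.

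The selection is the overlap of 2 lists. The 1332 windows at least 20 points higher in Tet2KO than in 2-month WT were 3.29% of shared windows, and the members are 45.5% of them. The 1126 windows at least 20 points higher at 11 months than in 2-month WT were 2.78% of shared windows, and the members are 53.8% of them. Because both lists share the 2-month WT pool, nothing is read from the size of that overlap. The opposite pattern, windows at least 20 points higher in 2-month WT than in both other pools, was met by 769 windows.

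The contrast was close to complete in 13 members at 11 loci, which were at 10% or less in 2-month WT and at 80% or more in both other pools. Among named genes these were Chad, Rdh13, Ccdc73, Shisa7 and Tmod2, with the snoRNA gene Gm26144 and the cDNA clone 4930500F04Rik, and the other 6 windows carried no gene name. Chad encodes chondroadherin, a leucine-rich matrix protein of cartilage. Its window (chr11:94564047-94566046), which lies inside the Acsf2 gene, was at 96.6% of 59 calls in Tet2KO (interval 88.5% to 99.1%), at 100% of 96 calls at 11 months (96.2% to 100%) and at 2.68% of 112 calls in 2-month WT (0.915% to 7.58%). The Tet2KO difference was 93.9 points (84.4 to 97.0) and the age difference 97.3 points (91.1 to 99.1). The window named for Rdh13, a retinol dehydrogenase, lies at an end of that gene, inside Eps8l1, at chr7:4470286-4472285. It was at 97.8% of 92 calls in Tet2KO, 97.0% of 267 calls at 11 months and 3.44% of 320 calls in 2-month WT, the deepest of the near-complete windows.

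Ccdc73 (chr2:104885324-104887323) was at 90.9% of 66 calls in Tet2KO, 87.3% of 71 calls at 11 months and 3.66% of 82 calls in 2-month WT. Shisa7, which encodes an auxiliary protein of transmitter receptors in the brain, had 94.0% of 50 calls in Tet2KO, 86.9% of 213 calls at 11 months and 6.19% of 307 calls in 2-month WT (chr7:4843697-4845696). In these 4 windows the 2-month WT interval ended below 11% while both other intervals began above 77%. The 2 Tmod2 windows, at the start of an actin filament capping gene and further inside it, rested on 12 and 20 calls in Tet2KO, and their difference intervals were wider (50.5 to 92.9 points at the start).

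Acsf2, an acyl-CoA synthetase family member, starts 36.8 kb from the Chad window and was also a member, at 100% of 44 calls in Tet2KO, 95.6% of 181 calls at 11 months and 17.7% of 113 calls in 2-month WT (chr11:94600872-94602871). The start of Rsad1, on the other side of Chad, was low in every pool, at 4.17%, 2.72% and 3.21%. The contrast was present at the Chad and Acsf2 windows and not at the neighbouring Rsad1 start. Cntn1, a neuronal adhesion protein of the contactin family, had 98.1% of 53 calls in Tet2KO, 97.1% of 136 calls at 11 months and 24.7% of 77 calls in 2-month WT (chr15:92050165-92052164). Emb, which encodes embigin, a chaperone of monocarboxylate transporters, had 81.9% of 72 calls in Tet2KO, 76.2% of 189 calls at 11 months and 8.18% of 220 calls in 2-month WT (chr13:117219625-117221624). A further window that overlaps the Emb start, and shares most of its calls, stood at 84.5%, 77.0% and 8.84%.

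The other windows among the 14 named genes with the largest contrast, at 30 calls or more in every pool, kept the same order with a higher floor or a lower ceiling. Grin3b, a subunit of NMDA receptors, rested on many calls and reached 98.3% of 118 in Tet2KO and 99.1% of 350 at 11 months, against 34.3% of 108 in 2-month WT. Adam22, a catalytically inactive member of the ADAM family on neurons, had 97.1% of 35 calls, 96.0% of 200 calls and 38.6% of 101 calls in Tet2KO, 11-month WT and 2-month WT. In both genes part of the calls were still methylated in 2-month WT. Rgs9, a regulator of G protein signalling in photoreceptors and striatum, had 82.1% of 78 calls in Tet2KO, 71.8% of 78 calls at 11 months and 8.81% of 159 calls in 2-month WT. Them7, a thioesterase family gene, differed more between the high pools, with 98.1% of 52 calls in Tet2KO, 69.6% of 112 calls at 11 months and 10.3% of 39 calls in 2-month WT. Aspg, an asparaginase gene, and the zinc finger genes Zfp113 and Zfp708 lay between 87.1% and 98.3% in the Tet2KO and 11-month pools and between 19.3% and 41.5% in 2-month WT.

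**Figure D2:**
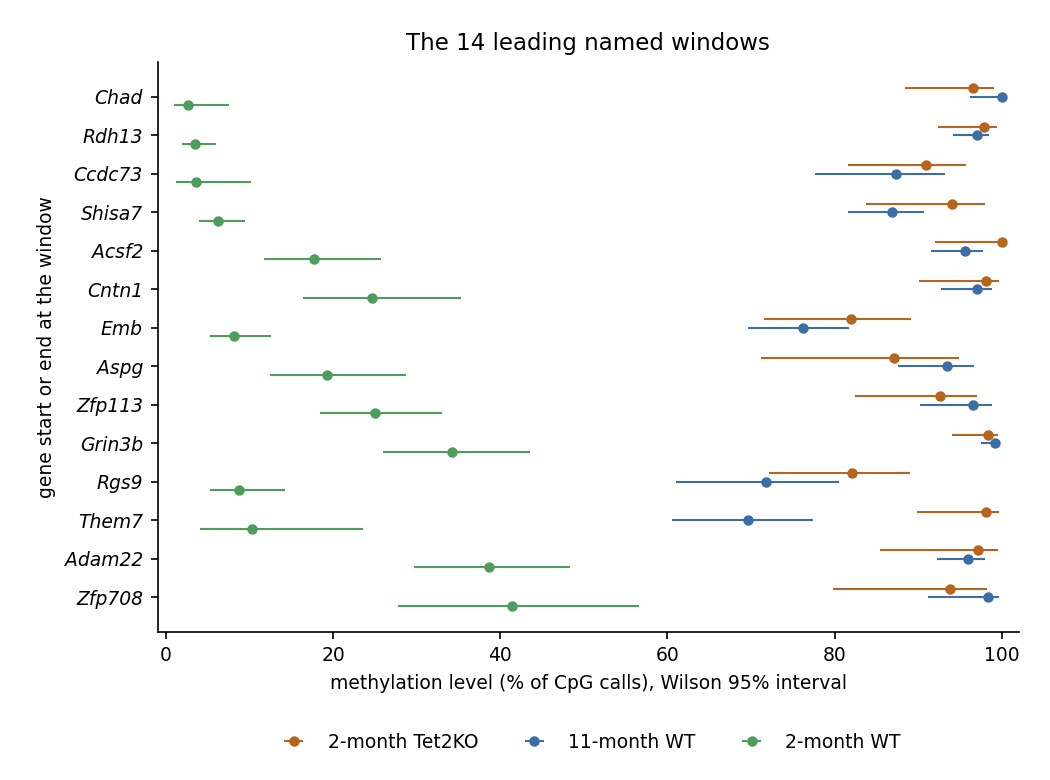
Methylation level (x axis, % of CpG calls, with Wilson 95% intervals) of the 14 named member windows with the largest contrast among those with at least 30 calls in every pool (y axis) in the 2-month Tet2KO, 11-month WT and 2-month WT pools, 1 point per pool. The 2-month WT points run between 2.68% for Chad and 41.5% for Zfp708, and no 2-month WT interval meets an interval of the other pools.

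Among members with the deepest coverage the contrast was smaller. Tmem267 had 55.3% of 832 calls in Tet2KO, 49.0% of 2855 calls at 11 months and 28.6% of 427 calls in 2-month WT, with an age difference of 20.4 points (15.6 to 24.9), just past the selection limit. Plppr5, a lipid phosphatase-related membrane protein, had 48.7% of 154 calls, 37.0% of 338 calls and 14.2% of 345 calls in Tet2KO, 11-month WT and 2-month WT. Tspan12, a tetraspanin of retinal vessel signalling, had 38.4% of 159 calls in Tet2KO, 42.7% of 211 calls at 11 months and 5.06% of 158 calls in 2-month WT. Abcg4, a sterol transporter, stood at 30% of 160 calls in Tet2KO, 27.1% of 399 calls at 11 months and 0.984% of 305 calls in 2-month WT. In these 4 deep windows the higher pools were only partly methylated. Members with no methylated call in 2-month WT numbered 38, on 10 to 123 calls each, and a count of 0 allows a level of up to 2.44% at 123 calls and up to 30% at 10 calls.

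The selection did not compare the Tet2KO pool with the 11-month pool directly, although it used both levels. Members lay 1.06 points apart in the median of Tet2KO minus 11-month WT, with 329 above 0, 257 below 0 and 20 equal. The absolute difference had a median of 7.72 points. Tet2KO was at least 20 points higher in 53 members (8.75%), against 2.09% of all shared windows, and at least 20 points lower in 40 members (6.60%), against 1.95%. All shared windows are mostly near 0% in both pools and have little room to differ. Among the 6349 other windows at 20% or more in both pools the shares were 6.52% and 6.0%, near those of the members, and their absolute difference had a median of 4.94 points. The Newcombe interval of Tet2KO minus 11-month WT lay away from 0 in 106 of the 606 members. It did so in 1090 of the 6349 other windows and in 6344 of all 40537 shared windows. The share in members was near that in the other windows.

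**Figure D3:**
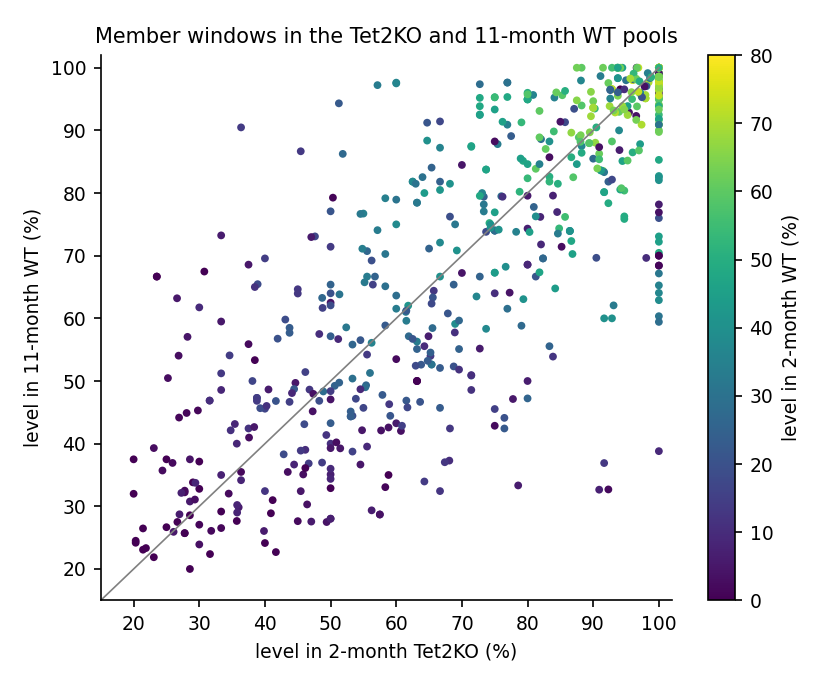
Level of each of the 606 member windows in 2-month Tet2KO (x axis, %) against 11-month WT (y axis, %), coloured by its level in 2-month WT, with the line of equal levels. Points lie on both sides of the line, 53 of them 20 points or more higher in Tet2KO and 40 of them 20 points or more lower.

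Among named members with at least 30 calls in every pool, the edges of that comparison in either direction were taken by 8 genes, Pparg among them. Rsph3a, a radial spoke gene of the flagellum, had 100% of 36 calls in Tet2KO, 64.1% of 64 calls at 11 months and 37.1% of 132 calls in 2-month WT. Gapdhs, the glycolytic enzyme of sperm, had 80% of 30 calls in Tet2KO and 47.2% of 36 calls at 11 months. In 2-month WT it had 25.8% of 31 calls, and its age difference was 21.4 points (-1.74 to 41.3). By the deposited mean fraction, Gapdhs stood at 65.2%, 71.4% and 47.5% in the same pools, on 11, 14 and 7 covered positions. The order of its Tet2KO and 11-month levels thus changed with the measure, which it did in no other of the 8 genes. Smok2b, a sperm motility kinase gene, was lower in Tet2KO than at 11 months. It had 51.3% of 119 calls in Tet2KO, 94.3% of 88 calls at 11 months and 22.2% of 45 calls in 2-month WT. Col7a1, the collagen of anchoring fibrils, and Urad, an enzyme of uric acid breakdown, were 30.8 and 30.7 points higher in Tet2KO than at 11 months. Samm50, of the mitochondrial outer membrane, and the LIM protein gene Csrp1 stood at -34.4 and -31.7 points in Tet2KO minus 11-month WT.

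Pparg, the nuclear receptor that drives fat cell formation, had 2 member windows at neighbouring starts with opposite orders of the high pools. The window of its CpG-rich promoter printed above (chr6:115359951-115361950) had 26.6% of 124 calls in Tet2KO, 63.2% of 231 calls at 11 months and 5.18% of 541 calls in 2-month WT. The next window, starting at 115361292, had 83.9% of 93 calls in Tet2KO, 53.9% of 308 calls at 11 months and 12.4% of 306 calls in 2-month WT. The windows overlap by part of their length and so share some calls.

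Members were CpG-poor. The number of CpG positions covered, in the pool that covered most, had a median of 23.5 in members (6 to 166) against 60 in all shared windows, 39 in the windows high only in 2-month WT and 24 in the other windows at 20% or more in both the Tet2KO and the 11-month pool. Members made up 4.76% of windows with 5 to 14 positions, 2.99% at 15 to 29, 1.88% at 30 to 59, 0.444% at 60 to 99 and 0.124% at 100 or more. As a share of windows at 20% or more in both other pools, the same classes gave 11.4%, 7.77%, 8.81%, 8.91% and 10.5%, with no steady fall. Among windows methylated in both other pools, members were thus about as frequent in CpG-rich as in CpG-poor windows, and no test was made.

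**Figure D4:**
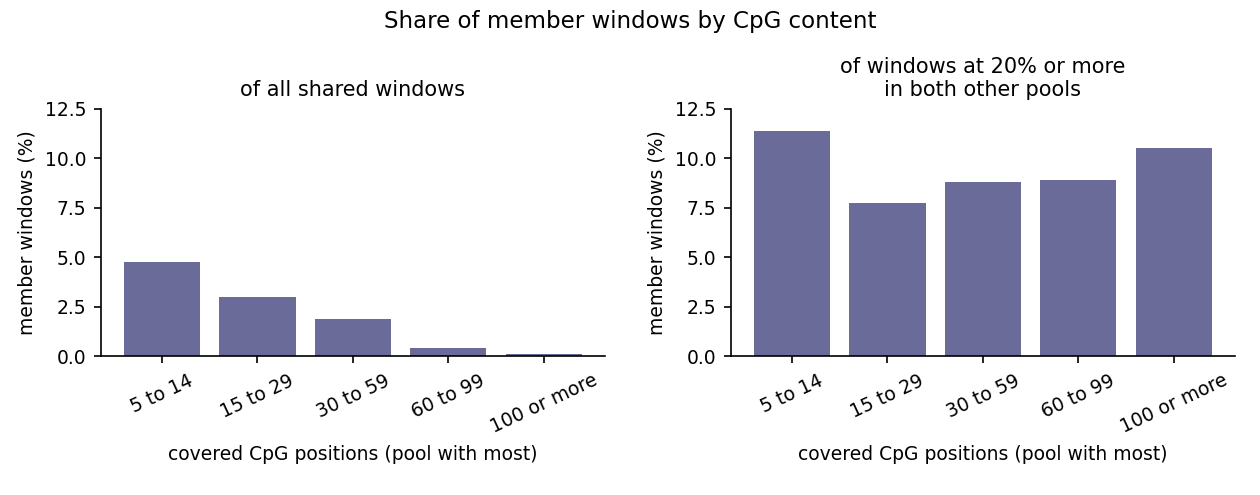
Share of member windows (y axis, %) in 5 classes of covered CpG positions (x axis, pool with most positions), among all shared windows at left and among windows at 20% or more in both the Tet2KO and the 11-month pool at right. At left the share falls to 0.124% in the class of 100 or more positions, against 4.76% in the class of 5 to 14, and at right it stays between 7.77% and 11.4%.

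Depth, which goes with CpG number, showed the same picture. Members were 3.85% of windows with 10 to 19 calls in the pool with fewest, 2.70% at 20 to 49, 1.00% at 50 to 99, 0.165% from 100 up to 200 and 0.0252% at 200 or more. Of windows at 20% or more in both other pools, the shares were 9.34%, 8.27%, 8.82%, 7.69% and 4.26%, the last of them resting on 2 members among 47 windows. The windows high only in 2-month WT fell less steeply over the same classes, with 2.81% of windows in the shallowest and 0.818% in the deepest. Whether shallow coverage placed windows among the members was not tested beyond these counts.

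The sequence at the start, which the selection did not use, pointed the same way. Of the members, 195 promoters had an entry in the RefSeq promoter table, and they held a median of 7 CpG sites in 300 bases, against 12 in 290 promoters high only in 2-month WT, 6 in 1739 promoters of the other windows methylated in both pools and 17 in all 16405 promoters of shared windows. Their observed over expected CpG ratio had a median of 0.310, against 0.539, 0.299 and 0.679 in the same sets. At most 3 CpG sites were found in 63 member promoters (32.3%), as in Smok2b, and 15 or more in 35 (17.9%), as in Pparg, Acsf2, Shisa7 and Ccdc73, against 57.0% of all promoters with 15 or more.

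Of 4 short motifs searched on both strands, GGGCGG, the core of Sp1 sites, was in 29.7% of member promoters, against 33.2% of the other promoters methylated in both pools and 55.7% of all promoters. CCAAT was in 35.9%, against 37.5% and 37.3%, TATAAA in 12.3%, against 12.6% and 8.55%, and CACGTG in 4.10%, against 6.27% and 9.36%. The member shares lay close to those of the other methylated promoters for the first 3 motifs. GGGCGG and CACGTG each hold a CpG site, so their shares go with CpG content. The Chad promoter holds GGGCGG and TATAAA, and those of Ccdc73 and Shisa7 hold GGGCGG and CCAAT.

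By position, 316 members (52.1%) had their centre inside a protein-coding gene, over 200 bp from either end, and 290 did not. That share inside genes stood at 38.9% for the windows high only in 2-month WT. Windows inside genes are more often methylated in every pool, with 19.2%, 18.9% and 18.4% of them at 80% or more in Tet2KO, 11-month WT and 2-month WT, against 5.93%, 5.96% and 5.81% outside. Members were 1.85% of windows inside genes and 1.24% of those outside. Of windows at 20% or more in both other pools, however, they were 7.15% inside genes and 11.4% outside. That order held in each class of CpG positions, with 7.21% inside and 11.1% outside at 5 to 29 positions, 6.82% and 11.7% at 30 to 79, and 8.77% and 14.2% at 80 or more. Members inside genes had median levels of 80%, 79.2% and 33.3% in Tet2KO, 11-month WT and 2-month WT, and members outside had 68.5%, 68.4% and 22.8%.

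Members were found on every chromosome analysed. Chromosome 7 held the most, 74 of 3732 windows (1.98%). Chromosome 13 had the highest share, 36 of 1296 windows (2.78%), or 17.9% of its windows at 20% or more in both other pools, and it carries Emb, Tmem267, Zfp708 and Slc34a1. On the X chromosome 26 of 1251 windows (2.08%) were members, or 13.9% of those methylated in both other pools, against 9 windows high only in 2-month WT. The X members come from fewer loci than windows, since Arhgap4 alone gives 5. The lowest share was on chromosome 19, with 9 of 1084 (0.830%), and as a share of windows methylated in both other pools on chromosome 12, with 5.22%. These shares count overlapping windows separately and were not tested.

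Of the 491 loci, 409 held a single window, and 13 genes had 3 or more member windows. The largest locus was at Nsmf, a synapse-to-nucleus signalling protein gene, where 7 overlapping windows at 1 of its ends had 72.7% to 80% of 22 to 26 calls in Tet2KO, 93.9% to 95.3% of 99 to 114 calls at 11 months and 48.1% of 129 calls in 2-month WT. The 5 windows of Arhgap4, on the X chromosome, had 100% of 20 to 22 calls in Tet2KO, 98.6% of 69 or 71 calls at 11 months and 63.6% of 11 calls in 2-month WT. Such windows share nearly all of their calls and count as 1 observation each.

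Windows close to a member were mostly low in every pool. The 300 windows that did not overlap a member and had their centre within 10 kb of one had median levels of 3.04%, 4.05% and 4.06% in Tet2KO, 11-month WT and 2-month WT. Of these, 9 (3.00%) were at least 20 points higher in Tet2KO than in 2-month WT, against 1.82% of all windows that are not members, and 8 (2.67%) were at least 20 points higher at 11 months, against 1.30%. Member windows that do not overlap did lie near each other more often than windows in general. A window 2 to 10 kb from a member was itself a member in 31 of 336 cases (9.23%), against 3.06% at 10 to 50 kb, 1.53% at 50 to 200 kb and 1.61% at 200 to 1000 kb. Beyond 50 kb that share was near the 1.49% over all windows. These counts take overlapping windows separately, and some near members lie in the same gene, as at Grid2ip. No share by distance was taken among windows methylated in both other pools.

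Single loci, chosen after their values were seen, show members beside other promoter windows of the same region. Around Rdh13 and Eps8l1 on chromosome 7, 2 overlapping windows at an Eps8l1 start were members, at 95% and 96.2% in Tet2KO, 98% and 98.1% at 11 months and 30.6% and 23.1% in 2-month WT. An earlier Eps8l1 window, at 20.8%, 30.95% and 11.5%, was also lowest in 2-month WT but was not a member. Windows inside Rdh13 were either high in every pool (100%, 100% and 93.4%) or low in every pool (1.10%, 1.74% and 1.60%). A row of serine protease genes on chromosome 9 held 4 members. Prss43 had 100% of 47 calls in Tet2KO, 97.8% of 92 calls at 11 months and 72.5% of 69 calls in 2-month WT. Prss45 had 97.1% of 68 calls, 97.8% of 184 calls and 48.6% of 35 calls in Tet2KO, 11-month WT and 2-month WT. Prss46 had 100% of 22 calls in Tet2KO, 100% of 95 calls at 11 months and 51.2% of 41 calls in 2-month WT, and a window further inside it had 29.4%, 33.8% and 8.62%. The starts on either side, Prss44 and Prss50, were at 9.80% or less in all pools.

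On chromosome 2, Ccdc73 and Them7 are both members, and the 9 windows listed between them, with the starts of Eif3m and Wt1os, stayed at 3.13% or less in Tet2KO, 2.60% or less at 11 months and 11.0% or less in 2-month WT. The start of Rcn1 beyond Them7 was likewise low, at 0.341%, 2.34% and 5.11%. Among the windows listed here, only the members Ccdc73 and Them7 were high in the Tet2KO and 11-month pools. The DNA between these promoter windows was not looked at.

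A cluster of small nucleolar RNA genes downstream of the imprinted gene Snrpn on chromosome 7 held 9 members at 8 loci. They all fall among the 21 windows farther from Snrpn (chr7:59352362-59596243), which had median levels of 60% in Tet2KO (6.25% to 85.7%), 67.2% at 11 months (40% to 86.4%) and 38.1% in 2-month WT (10.5% to 100%). The 33 windows nearer to Snrpn (chr7:59672555-59905848) held no member and had medians of 97.3%, 95% and 94.9%. The boundary between the groups was drawn after the levels were seen. The 9 members among the 21 are higher in both other pools by their selection. The 12 farther windows that are not members had medians of 58.6% in Tet2KO, 60.3% at 11 months and 50% in 2-month WT, on a median of 16.5 calls in the pool with fewest. Of these 12, 6 were higher and 6 lower in Tet2KO than in 2-month WT, and 9 were higher and 3 lower at 11 months. The lowest of them in Tet2KO, Gm24866, had 6.25% of 32 calls there, 53.8% of 78 calls at 11 months and 48.8% of 84 calls in 2-month WT. These genes are near-identical tandem copies, so the copy to which a read belongs is uncertain.

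**Figure D5:**
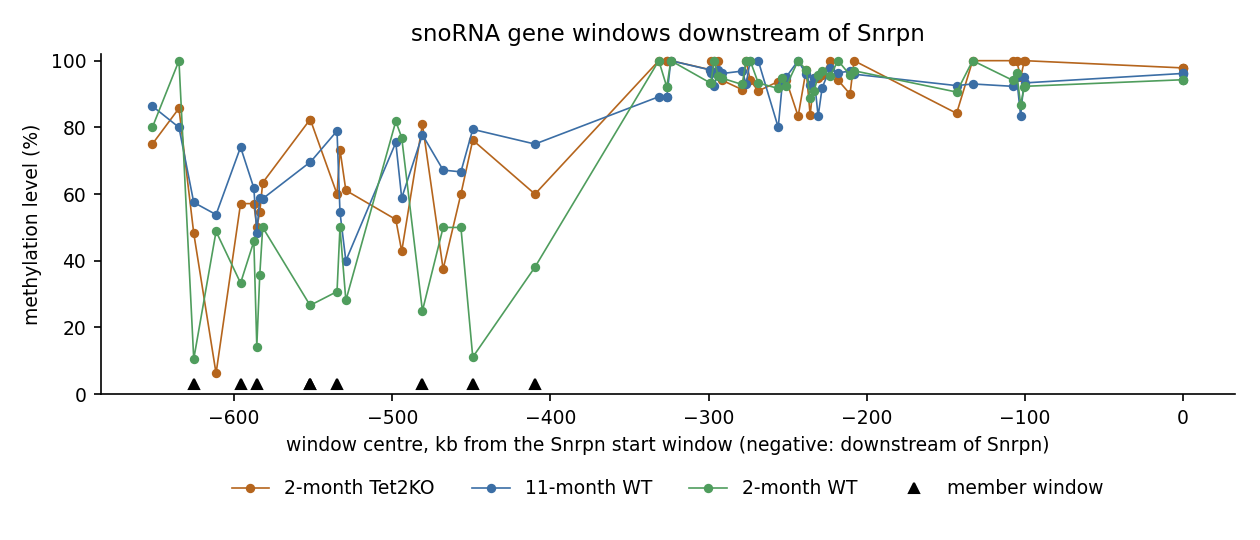
Methylation level (y axis, % of CpG calls) of snoRNA gene windows by distance of their centre from the Snrpn start window (x axis, kb, negative values downstream) in the 2-month Tet2KO, 11-month WT and 2-month WT pools; lines join neighbouring windows and triangles mark members. The 33 windows nearer to Snrpn lie at 80% or more in every pool, and the 21 farther ones spread between 6.25% and 100%.

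By gene class, 342 members (56.4%) could be named from a gene start or end, for 271 symbols, which is 1.40% of the 19419 named symbols. Among lists with 3 or more member genes, the shares were highest for extracellular matrix proteins, with 3 of 67 measured genes (4.48%), and proteases and serpins, with 6 of 150 (4.00%). The protease genes were Prss43, Prss45 and Prss46, which lie side by side, the kallikrein gene Klk13, Adam22, and the serpin gene Serpinb6a. The matrix genes were Chad, Col7a1 and Lamb1, a laminin chain gene with 54.8% of 73 calls in Tet2KO, 42.1% of 420 calls at 11 months and 4.97% of 181 calls in 2-month WT. Adhesion proteins had 4 of 157 genes, namely Cntn1, the claudin gene Cldn15, and Nlgn3 and Pcdhb7, whose windows lie at a gene end. With counts this small, no list is called particular to the members.

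Immune genes stood near the share over all symbols, with 3 of 151 cytokines, chemokines and their receptors (1.99%) and 2 of 137 leukocyte surface proteins (1.46%). Tnfsfm13, a tumour necrosis factor family gene, had 68.2% of 22 calls in Tet2KO, 76.2% of 202 calls at 11 months and 19.12% of 136 calls in 2-month WT, and Tnfrsf25, a death receptor of the same family, had 71.4% of 49 calls, 50.9% of 232 calls and 17.6% of 210 calls in the same pools. Cd4, the coreceptor of helper T cells, had 85.2% of 27 calls in Tet2KO, 71.4% of 56 calls at 11 months and 2.50% of 40 calls in 2-month WT at an end of the gene. Foxp3, the regulator of regulatory T cells, was the single member among 180 homeobox and developmental regulators. It had 85.7% of 42 calls in Tet2KO, 96.3% of 27 calls at 11 months and 50% of 36 calls in 2-month WT. By the deposited mean fraction, Foxp3 stood at 62.9%, 96.7% and 69.7% in the same pools. Its Tet2KO difference thus changed sign with the measure. Tie1, a receptor kinase of blood vessel lining, was the single member of 16 endothelial genes, with 75% of 20 calls in Tet2KO, 88.2% of 51 calls at 11 months and 2.70% of 37 calls in 2-month WT.

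Single members came from RNA splicing and helicases (Aqr, 1 of 141), where 100% of 26 calls were methylated in Tet2KO, 68.4% of 57 calls at 11 months and 1.05% of 190 calls in 2-month WT. Among secreted growth factors the member was Fgf7 (1 of 72), with 70.0% of 10 calls in Tet2KO, 67.2% of 58 calls at 11 months and 4.26% of 47 calls in 2-month WT, and 10 calls leave the Tet2KO level between 39.7% and 89.2%. Ion channels and transmitter receptors had Grin3b alone (1 of 218), keratins Krt78 (1 of 91), motor proteins Dnah11 (1 of 104) and cytochromes P450 Cyp2t4 (1 of 42). Zinc finger proteins (2 of 332) and solute carriers (2 of 314) were below the share over all symbols. None of the 114 measured genes in the list of G protein coupled receptors was a member. That list is incomplete. Members outside it included the receptor genes Cckar, Ffar2, Tas1r2 and Tas1r3 and several olfactory receptor genes.

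Lists of genes tied to the oocyte and to methylation itself were also looked up among the members. No member was found among 21 oocyte genes, 38 germline and meiosis genes, 24 genes of the DNA methylation machinery, 27 spindle checkpoint and cohesin genes, 25 DNA repair genes or 17 granulosa and cumulus genes. At 1.40% of named symbols, lists of this size hold few members in any case. Among 35 imprinted genes the single member was Peg10, through a window at a gene end with 86.7% of 75 calls in Tet2KO, 89.6% of 193 calls at 11 months and 66.7% of 39 calls in 2-month WT. Its Tet2KO difference of 20.0 points (4.14 to 36.8) sits on the selection limit.

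The identity of the samples was checked at imprinted starts. Of 11 starts known to be methylated in oocytes, 10 were measured, with medians of 94.0% in Tet2KO, 95.8% at 11 months and 96.1% in 2-month WT. Of the 10, 8, 9 and 8 were at 80% or more in these pools, and the lowest level was 0.658%, 0.424% and 1.04%. The starts of 3 genes with a paternal mark had medians of 2.22%, 2.33% and 4.21%, with a highest level of 2.50%, 6.67% and 23.4%. Whether these windows hold the mark itself was not checked. None of the measured starts was a member. The list of 11 also held Peg10, whose window at a gene end, given above, was a member. Start windows of granulosa and cumulus genes, the other cells such a sample could hold, had medians of 1.58%, 1.69% and 6.67% over 11 measured genes, with 2 at 80% or more in each pool and none a member, and the part of such cells in the member levels was not tested. A methylation level cannot check the loss of Tet2.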

How the data were processed

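Bisulfite libraries of mouse metaphase II oocytes were made by a low-input method, per the labels' protocols. The labels conflict on the input, giving 10 oocytes per sample in the design text and a single oocyte in the extraction protocol. The submitters' processing notes list Trimmomatic, Bismark (version field 12.5) and mm10 with no role for any of them, and further upstream steps are not stated. The authors deposited, per group and 2000 bp window around an Ensembl transcript start, counts of methylated and of all CpG calls, the number of covered positions, and the mean fraction methylated over those positions. No listed window had fewer than 10 calls or 5 positions. The table for 2-month WT breaks off within a line on the X chromosome, and 28 X windows that the other tables list beyond it were not analysed here.

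The level was 100 times methylated calls over all calls. The deposited coverage is the total of calls per window; summed over the shared windows, depth in calls was greatest at 11 months and least in Tet2KO. The tables being pooled, no test, p-value or replicate error was computed. Intervals and the limit for a count of 0 (3 counts) cover counting error only. Analyses used Python 3.11.15 with pandas 2.3.3, numpy 2.4.6 and scipy 1.17.1, and were tested on simulated data. A window was named from a start in the RefSeq promoter table within 200 bp of its centre or, for genes with no entry there, from a gene end, which may be the start or the end of the gene. Named genes followed a fixed rule: 1 window per symbol, without predicted genes, clones, microRNAs and olfactory or vomeronasal receptors. It took the 4 deepest members and, among windows that each pool covered with 30 calls or more, the 14 largest contrasts, the 4 highest and 4 lowest in Tet2KO minus 11-month WT and 3 on each side of the selection limit, then genes with 3 or more windows and list members; genes named in the accounts of neighbours and of near-complete windows were chosen after their values were seen. The result of 1 gene list is not reported here. The members and lists were chosen with earlier results of these data known. Alternatives were the deposited fraction as level, at least 20 or 50 calls, a 30-point limit, 1 window per locus, and leaving out windows whose calls differed over 5-fold between pools.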

Additional observations from a re-analysis of the deposited data

How the results depend on the processing

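Members rested on the call minimum and the limit more than on other choices. At a minimum of 20 calls per pool, 350 windows at 273 loci met the selection, with Tet2KO 20 points or more above 11-month WT in 30 of them and below it in 25. With at least 50 calls, 89 windows at 66 loci met it. All 89 had both Newcombe intervals above 0, which a difference of 20 points on that many calls nearly ensures by itself. Of these, 4 were near complete, 5 had Tet2KO 20 points or more above 11-month WT and 8 below it, the covered CpG positions had a median of 52, and the median level was 58.9% in Tet2KO, 58.8% at 11 months and 14.1% in 2-month WT. A 30-point limit left 296 windows at 242 loci, 287 with both intervals above 0, 24 with Tet2KO 20 points or more above 11-month WT and 13 below it. Taking the deposited fraction (565 windows), 1 window per locus (491) or leaving out windows of unequal calls (587) moved no count by over 1.5 times. Fewer windows follow in part from the stricter settings themselves. Of the 40537 shared windows, 33879 had at least 20 calls in every pool and 24208 at least 50. Members fell more steeply than all shared windows at both call minimums. Of windows at 20% or more in both other pools, members were 9.34% at 10 to 19 calls in the pool with fewest. That share was 8.27% at 20 to 49 calls, 8.82% at 50 to 99, 7.69% from 100 up to 200 and 4.26% at 200 or more. The last rests on 2 members among 47 windows. The cause of the steeper fall, and of the lower levels in deeper windows, was not tested. No paired analysis was possible because the tables hold 1 pooled value per group, and for the same reason no replicate could be left out.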

Other observations

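Members without a gene start or end at their centre were described after their values were seen. A window at chr9:35362114-35364113, outside protein-coding genes, had 100% of 36 calls in Tet2KO, 99.1% of 114 calls at 11 months and 4.84% of 62 calls in 2-month WT. A window inside Fmn1, a formin gene for actin assembly, had 100% of 53 calls in Tet2KO, 97.6% of 42 calls at 11 months and 4.69% of 64 calls in 2-month WT. A window inside Shh, the sonic hedgehog gene, had 97.4% of 39 calls in Tet2KO, 95.3% of 191 calls at 11 months and 20.2% of 183 calls in 2-month WT, and windows inside Tcf15 and Itgal had 98.6% and 77.5% in Tet2KO, 98.3% and 89.1% at 11 months and 30.3% and 23.3% in 2-month WT.

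Among named windows that no pool covered with under 30 calls, leaving out microRNAs, clones and predicted genes, the members nearest above the selection limit were Peg10, Csrp1 and Tmem267, each with a smaller difference of 20.0 to 20.4 points. Nearest below it were Zfp692, Cox7a2l and Klhdc9, whose smaller differences were 19.5, 19.5 and 19.07 points.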
